A study of Homo sapiens with 3 samples.

Results

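The 38 genes described here encode the integrins and the laminins. They were chosen by symbol alone, as the protein-coding genes named ITGA or ITGB followed by a number or letter code, or LAMA, LAMB or LAMC followed by a digit. They make up 38 of the 46427 genes counted, and comprise 26 integrin subunits (18 α and 8 β) and 12 laminin chains (5 α, 4 β and 3 γ). RNA-seq was carried out on MDA-MB-468 (MM468) cells, an established triple-negative breast cancer (TNBC) line of epithelial type, labelled wild type in both libraries described. MM468/PR cells were the survivors of exposure to paclitaxel at 2 to 320 nmol/L, and the parental cells were not treated. Each line gave 1 library, so no difference between lines has a replicate check and no test was run. Whether the PR line is a single clone was not given in the sources used here.

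Integrins are receptors made of 1 α and 1 β subunit that bind the extracellular matrix outside the cell and the actin or keratin cytoskeleton inside it. Laminins are trimers of an α, a β and a γ chain, and are the main adhesive proteins of basement membranes, the thin sheets on which epithelial cells rest. In breast and skin epithelium, α6β4 anchors hemidesmosomes to laminins with an α3 chain, and α3β1 binds the same laminins and those with an α5 chain. Because a subunit is generally held back inside the cell until it finds its partner, values are given by receptor pair and by trimer.

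The parental library held 32704885 counted reads and the PR library 43242628. Fold changes are ratios of counts after scaling by TMM, edgeR's normalization of library sizes, over genes with 10 or more counts in 1 of the 2 libraries. Each is followed by the 95% interval of an exact binomial calculation on the pair of counts, which covers counting error alone. A gene with 0 counts in a library was set against 3 counts there. Its fold change is then a lower bound that leaves out the counting error of the other library. Levels of different genes were compared per length, on the deposited TPM scale, whose sum over all genes is equal in both libraries. The 6 epithelial markers (EPCAM, CDH1, KRT7, KRT8, KRT18 and KRT19) had summed levels of 7998 and 7381 TPM in parental and PR cells. Of 8 leukocyte markers, 5 were at 0 counts in both libraries and the list summed to 4.71 and 2.09 TPM, and the 4 platelet markers summed to 0 and 0.0437 TPM. The 5 endothelial markers summed to 2.72 and 1.89 TPM and the 7 fibroblast markers to 9.54 and 8.05 TPM. Behind these sums, single markers differed in both directions. In PR cells KDR was 16.9-fold lower, PDGFRA 14.6-fold lower and TEK at least 23.7-fold higher. Among the epithelial markers, KRT7 was 2.2-fold lower and CDH1 1.71-fold higher. In bulk RNA, fewer cells expressing a gene and less RNA per cell cannot be told apart.

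Of the 38 genes, 34 had 10 or more counts in at least 1 of the libraries and 16 had 1000 or more. ITGA4, ITGA8, ITGA11 and ITGAD had 0 counts in both. In MM468/PR cells, 8 of 34 members were at least 2-fold higher than in parental cells, against 20.5% of all 19099 genes compared, and 5 members were lower by as much, against 13.5%. The 8 were ITGA1, ITGA3, ITGA7, ITGAX, LAMA1, LAMA4, LAMB4 and LAMC3, and the 5 were ITGA6, ITGAL, ITGB2, ITGB3 and ITGB8. The laminin chains past 2-fold were all higher, whereas the integrin subunits past it were 4 higher and 5 lower. LAMA1, LAMB4, LAMC3, ITGA1 and ITGAX reached 10 counts only in PR cells, and ITGB3 only in parental cells. The count minimum favoured the direction of these genes, so the contrast between chains and subunits rests in part on it. With library size as the only scaling, which moved the median of all genes by 0.226 on the log2 scale, the 8 and 5 became 9 and 3.

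A minimum of 1000 counts, chosen after the values were seen, removed the genes with few reads. Past 2-fold in PR cells were then 2 of 16 members upward (ITGA3 and LAMA4), beside 6.25% of all genes with as many counts, and 2 downward (ITGA6 and ITGB8), beside 11.6%. With 10 or more counts, the median log2 fold change of the 12 laminin chains was 0.64 in PR against parental cells, that of the 22 integrin subunits compared was -0.14, and that of all genes was 0.07. Setting the chains and subunits with a library at 0 counts to their bounds kept each on its side of the median. That check could therefore not move these medians. LAMA1, LAMB4 and LAMC3, which reached 10 counts only in PR cells, raised the laminin median. With 1000 or more counts, which leaves out these chains and also LAMA2 and LAMA3, it was 0.55 over 7 chains. Beside it were -0.32 over 9 integrin subunits and -0.08 over all genes.

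**Figure D1:**
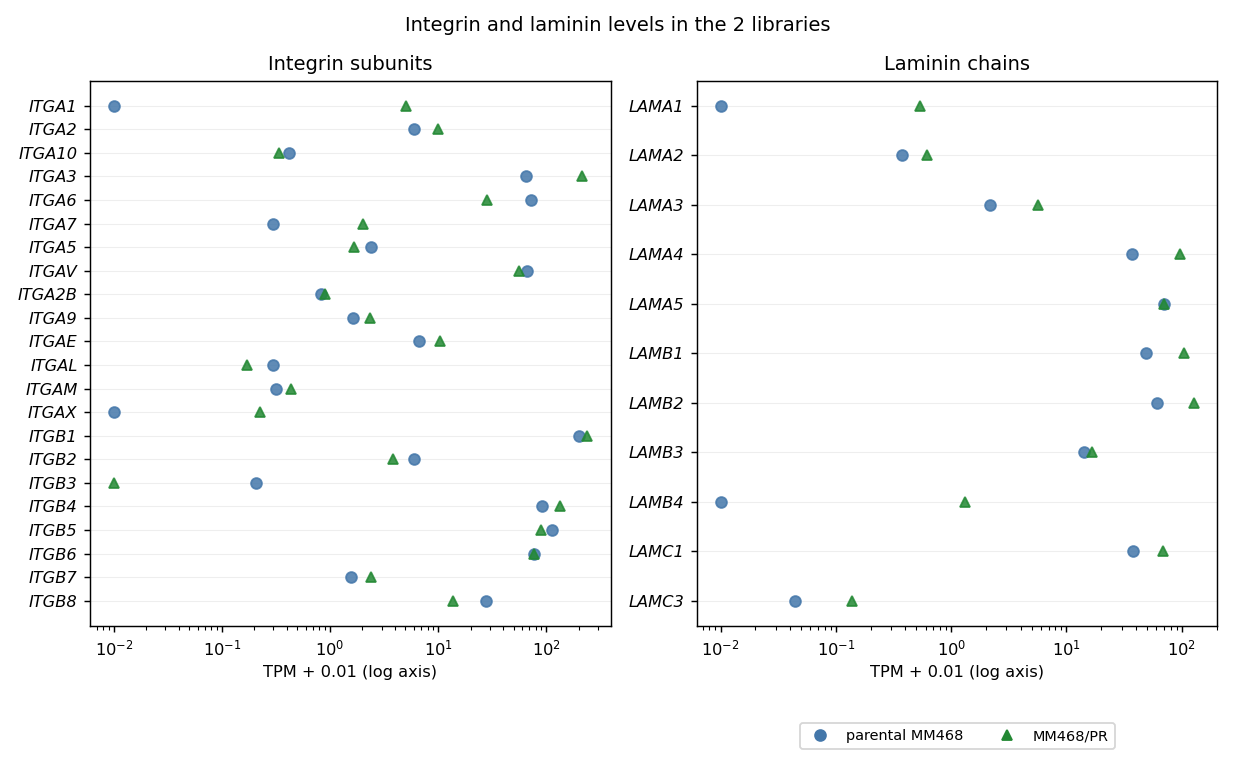
Level of integrin subunits (left) and laminin chains (right) with 10 or more counts in either library, as TPM plus 0.01 on a log axis, with 1 point per library and no error bars because each line has 1 library. Parental cells are circles and MM468/PR cells triangles. ITGA3 and LAMA4 lie to the right of the parental point in PR cells and ITGA6 and ITGB8 to the left.

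Among the laminin-binding integrins, the α3 subunit was more abundant and the α6 subunit less abundant in PR than in parental cells. ITGA3, on chr17:50055968-50090481 of GRCh38 (plus strand), encodes α3 and had 4637 counts in parental and 19205 in PR cells. It was 2.68-fold higher in PR cells (95% interval 2.59 to 2.76). ITGA6, on chr2:172427354-172506282 (plus strand), encodes α6, a partner of both β1 and β4, and had 6247 counts in parental and 2979 in PR cells. It was 3.25-fold lower in PR cells (3.11 to 3.39). On the TPM scale the order of the pair was reversed between the lines: ITGA6 exceeded ITGA3 in parental cells, at 73.2 and 64.8 TPM, and ITGA3 exceeded ITGA6 in PR cells, at 217 and 28.3 TPM.

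ITGB4, whose long cytoplasmic tail links α6β4 to the keratin network, did not show the order of ITGA6. It had 7722 counts in parental and 13775 in PR cells, which is 1.15-fold higher in PR cells (1.12 to 1.19). The β4 transcript stood at 92.4 TPM against 73.2 TPM of its only α partner in parental cells, and at 133 against 28.3 TPM in PR cells. ITGA6 was thus the lower subunit of α6β4 in both libraries, by a wider margin in PR cells. ITGA7, the α7 laminin receptor known from muscle, was low, with 20 and 159 counts, and was 5.12-fold higher in PR than in parental cells (3.22 to 8.64). Its exons overlap those of BLOC1S1 on the opposite strand, and whether the counting used strand was not given in the sources used here.

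ITGB1, which encodes the common β1 subunit, had 11188 counts in parental and 16325 in PR cells. In PR cells it was 1.06-fold lower (1.04 to 1.09), with the opposite sign under library size alone, FPKM (the count per transcript length and library depth) or TPM. The summed level of its 12 possible α partners was 215 TPM in parental and 323 TPM in PR cells, beside 202 and 240 TPM of ITGB1. Measured against its partners, β1 was thus close to their sum in parental cells and below it in PR cells. ITGA3 was the lower subunit of α3β1 in both libraries.

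**Figure D2:**
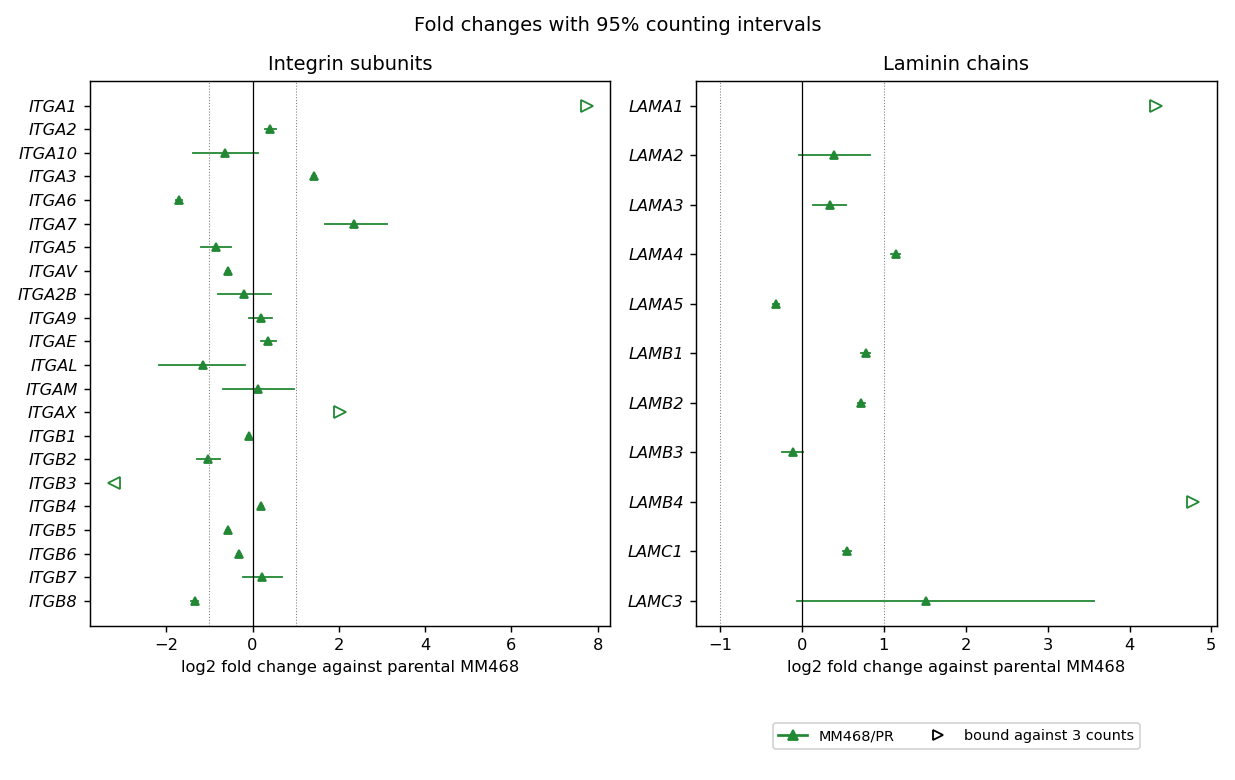
Log2 fold change of integrin subunits (left) and laminin chains (right) in MM468/PR against parental cells, 1 triangle per gene. Lines are exact binomial 95% intervals that cover counting error only, open arrowheads are bounds against 3 counts, and dotted lines mark a 2-fold change. Past 2-fold to the right are ITGA1, ITGA3, ITGA7, ITGAX, LAMA1, LAMA4, LAMB4 and LAMC3. To the left are ITGA6, ITGAL, ITGB2, ITGB3 and ITGB8. The intervals of LAMC3, ITGAL and ITGB2 cross the 2-fold line.

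The collagen-binding α subunits differed in PR cells through ITGA1. ITGA1, on chr5:52787896-52959210 (plus strand), encodes α1, which binds collagen IV of basement membranes with β1. It had 0 counts in parental and 996 in PR cells, at least 214-fold higher in PR cells. ITGA1 shares exon sequence on the same strand with PELO, whose counts were 552 and 620 and did not follow those of ITGA1. ITGA2, its neighbour on the chromosome, encodes the α2 collagen receptor of epithelia and had 696 and 1433 counts. It differed by less than 2-fold, at 1.33-fold higher in PR cells (1.21 to 1.46). On the TPM scale α1 reached 5.09 in PR cells beside 10.0 of α2. ITGA10, which encodes α10 of cartilage, had 32 counts in both libraries, and ITGA11 was at 0.

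The integrins that recognise the RGD tripeptide, found in fibronectin, vitronectin and the latent form of TGFβ, share the αV subunit. ITGAV had 6908 counts in parental and 7189 in PR cells and was 1.49-fold lower in PR cells (1.44 to 1.54). ITGB5, which makes the vitronectin receptor αVβ5, had 5890 and 6130 counts and was also 1.49-fold lower (1.44 to 1.54). Both subunits of αVβ5 were thus below parental cells by less than 2-fold.

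Other β subunits pair with αV in αVβ6 and αVβ8, receptors known to activate TGFβ. ITGB6, on chr2:160099666-160200313 (minus strand), encodes the epithelial β6 and had 5221 counts in parental and 6481 in PR cells. It was 1.25-fold lower in PR cells (1.20 to 1.29), with 77.4 and 77.5 TPM in parental and PR cells on the TPM scale, where the sign was the opposite. ITGB8, which encodes β8, had 3660 and 2239 counts and was 2.53-fold lower in PR cells (2.40 to 2.67). With FPKM or TPM plus 1 its log2 fold change, -1.34 with TMM, was -0.98, just under 2-fold. Of the summed TPM of ITGB3, ITGB5, ITGB6 and ITGB8, ITGB6 made up 35.4% in parental and 42.9% in PR cells. ITGB5 made up 51.7% and 49.5%, and ITGB8 12.8% and 7.58%.

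ITGB3, the β3 subunit of αVβ3 and of the platelet receptor αIIbβ3, was at the edge of detection, with 18 counts in parental and 0 in PR cells. It was at least 9.29-fold lower in PR cells. Its α partner in platelets, ITGA2B, had 42 and 57 counts, and its interval included no change (1.14-fold lower, 0.747 to 1.73). ITGA5, the α5 subunit of the classical fibronectin receptor, was low, with 149 and 128 counts, and was 1.80-fold lower in PR cells (1.41 to 2.30). ITGA9, which pairs with β1, had 190 and 335 counts, 1.14-fold higher with an interval that included no change (0.951 to 1.37).

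The integrins best known from leukocytes were at low levels. ITGB2, the common β2 subunit, had 265 counts in parental and 202 in PR cells, which is 2.03-fold lower in PR cells (1.68 to 2.45), and under 2-fold with library size as the only scaling. Its α partners had fewer reads: ITGAL 23 and 16 counts, ITGAM 22 and 37, and ITGAX 0 and 19. In parental cells ITGB2 stood at 6.01 TPM and its 4 α partners summed to 0.596 TPM, and in PR cells these levels were 3.81 and 0.804 TPM. ITGAL was 2.21-fold lower in PR cells, with an interval of 1.12 to 4.51 and also under 2-fold with library size only, and ITGAX was at least 4.09-fold higher.

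Beside these values, the pan-leukocyte marker PTPRC had 24 and 44 counts, CSF1R 259 and 112, and CD33 4 and 5. CSF1R, like ITGB2 and ITGAL, was lower in PR cells, and PTPRC was not. The part of other cells in these values was not tested. ITGB2-AS1, which overlaps ITGB2 on the opposite strand, had 181 and 399 counts, so its reads and those of ITGB2 may not be separable. ITGAE, the αE subunit that binds E-cadherin, had 432 and 861 counts, and its β7 partner ITGB7 had 68 and 123. Both were within 1.29-fold of parental cells, and both overlap another gene on the opposite strand (HASPIN and ZNF740).

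Among the laminin chains, the abundant chains of the laminins with an α4 or α5 chain are taken first. LAMA5 encodes α5, the chain of most adult epithelial basement membranes, and had 11706 counts in parental and 14532 in PR cells. It was 1.25-fold lower in PR cells (1.22 to 1.28), and its exons overlap those of ADRM1 on the opposite strand. LAMA4, on chr6:112108760-112254939 (minus strand), encodes α4, known from vessel, muscle and nerve basement membranes. It had 3342 and 11454 counts and was 2.21-fold higher in PR cells (2.13 to 2.30). LAMA4 stood at 37.2 TPM against 70.7 TPM of LAMA5 in parental cells, and at 96.4 against 70.5 TPM in PR cells. The order of the α4 and α5 chains was thus reversed between the lines.

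The β and γ chains that pair with α4 and α5 were higher in PR cells. LAMB1, which encodes β1, had 4180 and 11086 counts, 1.71-fold higher in PR than in parental cells (1.65 to 1.78). LAMB2, which encodes β2, had 5140 and 13153 counts, 1.65-fold higher (1.60 to 1.71). LAMC1, on chr1:183023460-183145592 (plus strand), encodes γ1, the γ chain of most laminins, and had 4414 and 9996 counts. It was 1.46-fold higher in PR cells (1.41 to 1.52). None of the 3 reached 2-fold with TMM scaling, although LAMB1 did with library size only (log2 fold change 1.004) and, like LAMB2, with TPM plus 1 (1.07 and 1.04). LAMB1 shares exons with DLD on the opposite strand, which had 4052 and 9376 counts.

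The α3 and β3 chains belong to the laminins of hemidesmosomes. LAMA3, on chr18:23689443-23956222 (plus strand), encodes α3 and had 321 counts in parental and 628 in PR cells. It was 1.26-fold higher in PR cells (1.10 to 1.45). LAMB3, on chr1:209614870-209652466 (minus strand), encodes β3 and had 853 and 1223 counts. It was 1.08-fold lower with an interval that included no change (0.988 to 1.18), and its sign changed with library size alone, FPKM or TPM. Neither chain reached 2-fold in counts, and LAMA3 passed it with TPM plus 1, at a log2 fold change of 1.08.

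LAMA3 is transcribed from more than 1 start, and the deposited values bear on which transcripts were counted. In the GENCODE v29 annotation, long transcripts of 10661 and 9834 bases begin at chr18 positions 23689443 and 23689684, and short transcripts of 5671 and 5007 bases begin at 23872840 and 23873045, inside the gene. A non-coding transcript of 1815 bases begins at 23689598, near the starts of the long ones, so a shorter mean length need not come from the internal starts. The short transcripts encode the α3A chain and the long ones the α3B chain. Since FPKM divides the count by length and depth, count and FPKM together imply a transcript length for each gene and library. This length was 10919 bases in parental and 6516 in PR cells. The value in PR cells was thus between the lengths of the short and the long transcripts, and the value in parental cells near to the long ones.

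The PR value was 0.597 of the parental value, beside a median of 0.984 over the 11955 genes with 100 or more counts in both libraries, and 15 of them had a lower ratio. The other 20 integrin and laminin genes with as many counts had ratios of 0.962 to 1.05. Over 1792 genes with 1 annotated transcript, the implied length was a median of 1.09 and 1.07 times the annotated length in parental and PR cells. The LAMA3 level in TPM, 2.17 in parental and 5.69 in PR cells, carries this length, so the PR to parental ratio is larger in TPM than in counts. This quantity was computed after the values of LAMA3 had been seen, and no reads or junctions were examined.

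The starts of these genes were searched for the motif TGANTCA, to which AP-1 (Fos and Jun dimers) is known to bind and which reads the same on both strands. RefSeq promoter windows of GRCh38.p14, from 250 bases before to 50 after the start, were matched by symbol to 26 of the 38 genes in 33 windows. The motif was in the LAMA3 window, in 1 of 3 LAMB3 windows and in the ITGA5 window, 9.09% of the 33 windows, beside 7.71% of all 35116 windows. LAMA3 has it at 2 positions, and 0.515% of all windows hold it at 2 or more. Its window lies around the internal starts, between which both matches fall, so that they are after the annotated start of the 5671-base transcript and before that of the 5007-base one. The LAMB3 window with the motif is at a start inside the gene, and the 2 windows nearer to its annotated 5′ end hold none. The sequences around each match are shown to place them, with the motif in capitals and 5′ to 3′ on the strand of the gene.
LAMA3 at chr18:23872884-23872913, plus strand: ctggcacaggcTGACTCAtgtgtgaagttt
LAMA3 at chr18:23872940-23872969, plus strand: ccttcctcaccTGAGTCAggcaggcccggg
LAMB3 at chr1:209651423-209651452, minus strand: gtcagccactcTGACTCAttcactttgggc
ITGA5 at chr12:54419254-54419283, minus strand: cctccccgcgtTGAGTCAttcgcctctggg
Counted from the start that RefSeq gives each window, the motifs begin 125 and 69 bases before it in LAMA3, 67 before it in LAMB3 and 6 before it in ITGA5. In GENCODE v29 all 4 lie inside the gene, and the bases before each of these window starts hold exon sequence of the same gene. In PR cells LAMA3 was 1.26-fold higher, LAMB3 1.08-fold lower and ITGA5 1.80-fold lower than in parental cells. A match describes letters in the window and not binding, and the motif was searched after these values had been seen.

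The remaining chains were rare. LAMA1, the α1 chain of embryonic basement membranes, had 0 counts in parental and 93 in PR cells, at least 20.0-fold higher in PR cells. LAMB4, on chr7:108023548-108130356 (minus strand) beside LAMB1, encodes β4 and had 0 and 127 counts, at least 27.3-fold higher. Reads of both were thus seen in PR and not in parental cells. LAMA2, the α2 chain of muscle and nerve, had 67 and 136 counts and was 1.31-fold higher, with an interval that included no change (0.972 to 1.78). LAMC3, which encodes γ3, had 4 and 18 counts, 2.86-fold higher in PR cells with an interval that included no change (0.958 to 11.8). These 4 chains reached at most 1.30 TPM.

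By receptor pair and trimer, the level of the rarest subunit transcript was taken, since no protein was measured in these files. For α3β1 this was 64.8 TPM in parental and 217 in PR cells, and for α6β4 it was 73.2 and 28.3 TPM. The α3β1 value thus lay below that of α6β4 in parental cells and above it in PR cells. For αVβ6 it was 66.4 and 56.1 TPM, set by ITGAV in both. For α1β1 it was 0 and 5.09 TPM, set by ITGA1. The ITGAV level was also the value of αVβ1 and αVβ5, and the ITGA6 level that of α6β1. These values do not divide a shared subunit among its pairs, so they are not amounts of each receptor.

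For the laminins α5β1γ1 and α5β2γ1 the rarest chain was LAMC1 in both libraries, at 37.6 and 69.2 TPM. The laminins α4β1γ1 and α4β2γ1 gave 37.2 TPM, set by LAMA4, in parental cells and 69.2 TPM, set by LAMC1, in PR cells. PR cells were thus higher for these 4 trimers on the TPM scale, but all 4 PR values are the same level of LAMC1. With TMM scaling LAMC1 was 1.46-fold higher in PR cells. On the same scale LAMA3 stood at 2.17 and 5.69 TPM and LAMB3 at 14.1 and 16.8 TPM. Over all 12 chains the summed laminin level was 292 TPM in parental and 516 in PR cells. Over all 26 subunits the summed integrin level was 744 and 895 TPM. These sums hold on the TPM scale, and no sum was taken with TMM scaling. With TMM the median log2 fold change was 0.64 for the laminin chains and -0.14 for the integrin subunits compared. LAMA1, LAMB4 and LAMC3 reached the count minimum only in PR cells, which raised the laminin median. Among the chains left without them, the middle log2 fold change was that of LAMA2, at 0.39. The laminin median thus rests in part on the count minimum. The log2 fold change of ITGB1 was 0.24 with TPM plus 1 and -0.09 with TMM.

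Partners of laminin in the basement membrane were described from a list of 17 genes. Past 2-fold in PR against parental cells were 6 of the 15 compared upward (beside 20.5% of all genes) and 3 downward (beside 13.5%), and the list's median log2 fold change was 0.395, beside 0.07 for all genes. COL4A1 and COL4A2, the ubiquitous collagen IV chains that α1β1 and α2β1 bind, had 437 and 5045 counts and 943 and 7434 counts in parental and PR cells. They were 7.46-fold (6.76 to 8.24) and 5.09-fold higher (4.76 to 5.46) in PR cells. COL4A6, a collagen IV chain of epithelial basement membranes, had 215 and 2510 counts, 7.54-fold higher (6.56 to 8.71). FRAS1, a basement membrane protein of skin and kidney development, had 1058 and 12988 counts, 7.93-fold higher (7.45 to 8.45). The 3 genes of the list that were lower were COL4A4 (316 and 181 counts), COL18A1 (2189 and 1619) and COL15A1 (32 and 16). The collagen IV chains thus differed in both directions. NID1, a linker of laminin and collagen IV, had 0 counts in both libraries.

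Among 7 genes of hemidesmosomes and other laminin receptors, 1 was at least 2-fold higher, beside 20.5% of all genes, and 1 lower, beside 13.5%, in PR than in parental cells. BCAM, a receptor for the laminin α5 chain, had 1698 and 13399 counts, 5.10-fold higher in PR cells (4.85 to 5.37). CD151, the tetraspanin that associates with α3β1 and α6β4, had 6264 and 2159 counts, 4.49-fold lower (4.28 to 4.72). The plakins that join α6β4 to keratin differed by less than 2-fold. PLEC had 13214 and 15239 counts and was 1.34-fold lower in PR cells (1.31 to 1.37), and DST had 6097 and 6407 counts and was 1.47-fold lower (1.42 to 1.53).

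In a list of 25 integrin adaptors and regulators, 3 genes were at least 2-fold higher in PR cells, beside 20.5% of all genes. By as much, 5 were lower, beside 13.5%. The 3 higher were FERMT1 (367 and 1339 counts), FERMT3 (31 and 142) and PARVB (3 and 16). Among those with 100 or more counts, the genes furthest from parental cells were lower. TLN1, which encodes talin, the adaptor that binds β tails, had 30579 counts in parental and 12513 in PR cells and was 3.78-fold lower (3.70 to 3.86). VCL, which encodes the talin-binding vinculin, had 11051 and 3654 counts and was 4.68-fold lower (4.51 to 4.86). ILK, a pseudokinase of the same adhesions, had 2091 and 1068 counts and was 3.03-fold lower (2.81 to 3.27). The tensin TNS4 had 612 and 241 counts and was 3.93-fold lower (3.38 to 4.58).

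Of 17 matrix and cell-surface ligands of integrins, 13 were compared, with 3 past 2-fold upward, beside 20.5% of all genes, and 4 downward, beside 13.5%, in PR cells. FN1, which encodes fibronectin, had 1744 counts in parental and 276 in PR cells and was 9.78-fold lower (8.61 to 11.1). FBN1, which encodes the RGD protein fibrillin, had 23 and 861 counts and was 24.1-fold higher (16.0 to 38.4). The other genes of the list past 2-fold upward were VTN and EDIL3, with 0 counts in parental and 11 in PR cells each. Both reached 10 counts only in PR cells. CCN2 and MFGE8, ligands of αV integrins, were both lower in PR cells. CCN2 had 7076 and 2577 counts and was 4.25-fold lower (4.06 to 4.45), and MFGE8 had 1102 and 411 counts and was 4.15-fold lower (3.70 to 4.66).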

How the data were processed

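For each line, 1 RNA-seq library was prepared with a stranded mRNA kit. Data of a further line and of certain genes are not reported here. The submitters' processing notes name Trimmomatic 0.39, HISAT2 2.2.1, StringTie 2.2.1 and GRCh38. The annotation release and whether reads were counted by strand were not given in the sources used here. The authors deposited whole-number read counts per gene, not normalized. They also deposited FPKM, per transcript length and library depth, and TPM, which sums to 1000000 in each library.

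Counts of the 2 libraries were scaled by TMM in edgeR 4.0.16 (R 4.3.3), using genes with 10 or more counts in 1 of them, and log2 fold changes used a prior count of 0.125. A quasi-likelihood test needs replicates and was not possible. Intervals are exact (Clopper-Pearson) 95% intervals. Reads carry no molecular identifiers, so intervals cover counting error only. Bounds take the observed count as it is and leave out its counting error. The CPM of 3 counts was 0.0917 and 0.0694 in parental and PR cells. Fold changes of at least 2-fold were counted, and the share of all genes past it was given beside them. The scaling was tested on simulated data with known changes in few genes, both upward and downward. Many more genes differed in these data, so the simulation does not test the scaling under such a shift.

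From each of 4 gene lists, up to 4 genes with 100 or more counts and the largest log2 fold change of any line against parental cells were named. The members and lists were chosen with earlier results of these data known. Other genes (PTPRC and the other markers, ITGB2-AS1 and further overlapping genes, NID1, COL4A4, COL18A1, COL15A1, FERMT1, FERMT3 and PARVB) were chosen after their values were seen or as markers of a list. VTN and EDIL3 were likewise named after their values were seen. Gene positions are from GENCODE v29 (GRCh38). The alternatives comprised TMM over all 3 libraries of the experiment, size factors of DESeq2 1.42.0, library size only, a prior count of 2, count minimums of 1, 100 and 1000, a 4-fold threshold, the interval end, FPKM with a pseudocount of 1 and TPM with a pseudocount of 1 or 0.1. Figures were drawn with matplotlib 3.10.9.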

Additional observations from a re-analysis of the deposited data

How the results depend on the processing

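No paired analysis was possible because each line had 1 library. Of 442 fold changes of single genes under the alternatives, 273 lay within the counting interval of the reported value and 169 outside it. None that was at least 2-fold turned its direction under the alternatives run, and 18 values of 5 smaller fold changes had the other sign. Members at least 2-fold higher in PR against parental cells (8) became 5 with a minimum of 100 counts, 2 with 1000 counts, 5 at 4-fold and 3 with FPKM (ITGA1, ITGA3 and LAMA4), and were 9 with library size only, where LAMB1 was added, and 10 with TPM plus 0.1. With TPM plus 1 they were again 8, but LAMA3, LAMB1 and LAMB2 stood in the place of ITGAX, LAMA1 and LAMC3. Those lower in PR (5) became 3 with library size only, 2 with 100 or 1000 counts, 1 at 4-fold, 3 by the interval end, 1 with FPKM (ITGA6), and 1 (ITGA6) or 3 with TPM plus 1 or 0.1. Higher minimums and thresholds leave fewer genes by construction, and a pseudocount of 1 shrinks the folds of genes with low values. Any differences between cultures of 1 line are not covered by these intervals. Depth limits most the members with 10 or more counts but under 100 in both libraries, ITGA10, ITGA2B, ITGAL, ITGAM, ITGAX, ITGB3, LAMA1 and LAMC3.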
